A study of Mus musculus with 9 samples.

Results

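Histone lysine methyltransferases, histone lysine demethylases and histone deacetylases were followed in Arf1-deficient N2a cells. They were taken as every gene of the deposited table whose symbol starts with Kmt, Kdm, Setd, Ehmt, Ezh, Nsd, Hdac or Sirt and a number, which gave 59 of 21899 genes. Methyltransferases add methyl groups to lysines of the histone tails and demethylases take them off. Methylated H3K4 is known from active promoters, methylated H3K36 from transcribed gene bodies, and methylated H3K9, H3K27 and H4K20 from silenced chromatin. Histone deacetylases and sirtuins remove acetyl groups, the former with zinc and the latter with NAD, and several of them act mainly on proteins other than histones.

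N2a (Neuro-2a) is a mouse neuroblastoma cell line. The cells carried lentiviral pLKO.1 hairpins with a puromycin marker, against luciferase (shlucif, the control) or against Arf1, a small GTPase of Golgi membranes and vesicle traffic (shArf1-1 and shArf1-2). There were 3 RNA-seq libraries per hairpin, no further treatment, and Arf1-deficient cells are here the 6 libraries of both Arf1 hairpins. Whether a line came from 1 clone is not given in the sources used here, and neither is whether the 3 libraries of a hairpin came from separate cultures, so the p-values measure only the spread between these libraries. Arf1 is the gene that both hairpins target, and the 2 target sites, read from the oligonucleotides of the study, are shown because they set the groups apart:
shArf1-1: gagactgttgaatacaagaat
shArf1-2: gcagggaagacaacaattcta
Both sites are coding sequence of Arf1 (GENCODE vM21, GRCm38, chromosome 11, minus strand), that of shArf1-1 in exon 3 of 5 from 59213222 to 59213242 and that of shArf1-2 in exon 2 of 5 from 59213386 to 59213406. In 542 annotated transcripts of the 59 genes, the longest run of bases shared with the shArf1-1 site was 11, in Nsd2, and with the shArf1-2 site 12, in Setd3. Arf1 was at 328, 316 and 328 FPKM (fragments per kilobase of gene length, scaled to the library's total count) with shlucif, at 130, 128 and 127 FPKM with shArf1-1 and at 166, 157 and 171 FPKM with shArf1-2, so the targeted gene was lower in every library labelled with an Arf1 hairpin.

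The libraries held 11182479 to 15594615 counts, of which the 59 genes took 0.488% to 0.558%. Mitochondrial genes took 0.734% to 0.861% of the counts with shlucif, 1.03% to 1.31% with shArf1-1 and 0.656% to 0.949% with shArf1-2. Neuronal markers summed to 806 to 837 FPKM with shlucif, 1141 to 1315 with shArf1-1 and 1164 to 1201 with shArf1-2, most of it from Tubb3 and Uchl1. Tubb3 had means of 410, 694 and 695 FPKM in these groups and Uchl1 of 238, 293 and 265 FPKM. Nefm had 0 counts in every library, Nefl at most 2 and Rbfox3 at most 4, and Dcx had 0 to 5 with shlucif. Of 13 neuronal markers tested, 9 were higher (against 31.6% of all genes) and 1 was lower (against 32.9%) in Arf1-deficient cells. Macrophage and microglia markers, which a neuroblastoma line should lack, summed to 203 to 245 FPKM with shlucif, to 0.839 to 0.867 FPKM with shArf1-1 and to 0.967 to 1.24 FPKM with shArf1-2. Of the 18 markers on that list, 15 could be tested and 15 were lower (against 32.9% of all genes). Of these 18 markers, 7 had 0 counts in every Arf1-deficient library, and 14 had no more than 3 counts in any of them. Genes that low there pass the filter on low counts through the shlucif libraries alone, so their calls could only be lower. Ctss, a lysosomal protease of myeloid cells, had 564 to 649 counts with shlucif and 0 with either Arf1 hairpin. The shlucif libraries thus stood apart in myeloid transcripts along the same comparison as the changes given here, and the part of this in the changes of the histone enzymes was not tested. Fibroblast markers summed to 7.07 to 7.24 FPKM with shlucif and 2.2 to 3.62 FPKM in Arf1-deficient cells (0 of 4 tested higher, 2 lower), and astrocyte and oligodendrocyte markers to 5.36 to 5.43 FPKM and 3.75 to 4.54 FPKM (0 of 3 higher, 2 lower). Cell division genes summed to 846 to 870 FPKM with shlucif, 1004 to 1016 with shArf1-1 and 872 to 892 with shArf1-2, with 4 of 16 higher and 1 lower. The shares of all genes, 31.6% higher and 32.9% lower, apply to the fibroblast, glial and cell division counts too. In bulk RNA, fewer cells of a type and less RNA per cell cannot be told apart.

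Changes were tested with edgeR's quasi-likelihood test, with p-values adjusted by Benjamini-Hochberg over all 12448 genes tested and a threshold of 0.05, and SE is the standard error of a log2 fold change. Of the 59 genes, 57 passed the filter on low counts. Kdm4d, an H3K9 demethylase, had 0 to 15 counts per library, and Kdm5d, a Y-linked H3K4 demethylase, had 0 to 1. In Arf1-deficient against shlucif cells, 22 members were higher (38.6% of 57, against 31.6% of all genes tested) and 14 lower (24.6%, against 32.9%). The median size of the log2 fold change was 0.32 over the members and 0.37 over all genes, and its signed median was 0.03 and 0.00. The other 21 members did not pass the threshold, with log2 fold changes between -0.33 and 0.14. The macrophage and microglia markers given above were lower in the same 6 libraries as the 14 lower members.

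With shArf1-1, 20 members were higher (35.1%, against 33.1% of all genes) and 18 lower (31.6%, against 34.4%). With shArf1-2, 21 were higher (36.8%, against 30.9% of all genes) and 15 lower (26.3%, against 32.6%). The same 19 members were higher and the same 14 lower with both hairpins, 5 passed with shArf1-1 alone and 3 with shArf1-2 alone, and none passed in opposite directions. Those that passed with shArf1-1 alone were Ehmt2, Kdm3a, Kdm4a, Kdm6b and Sirt3, and those with shArf1-2 alone were Kdm6a, Kmt2d and Sirt6. Of these 8 members, Kdm6b differed between the hairpins by the test of the difference itself. These comparisons share the 3 shlucif libraries. How many of all genes passed with both hairpins or with a single hairpin was not counted. The agreement between the hairpins is therefore not shown to be a trait of the members. The change was the larger one with shArf1-1 in 28 of the 36 members that passed in Arf1-deficient cells (77.8%), against 64.4% of the 8027 genes that passed. Between the hairpins themselves, 7 members differed (12.3%, against 14.4% of all genes).

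**Figure D1:**
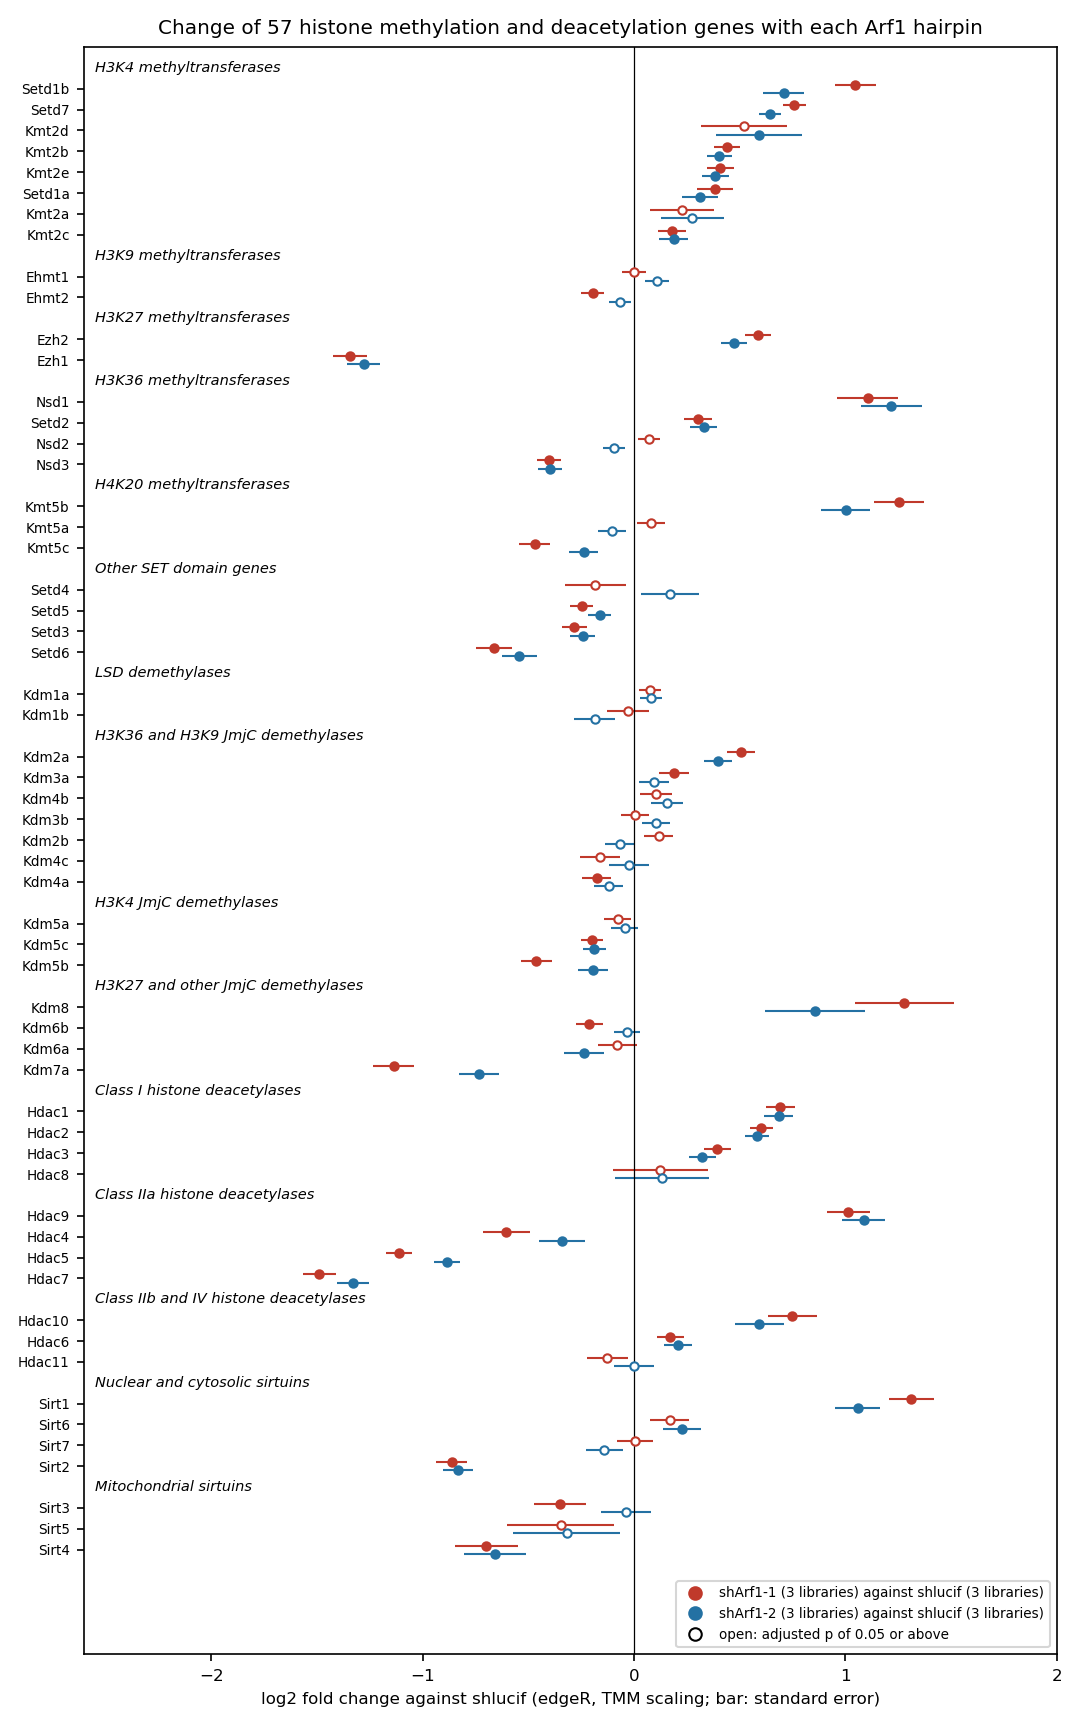
Log2 fold change against shlucif of the 57 members tested, grouped by enzyme class, with shArf1-1 in red and shArf1-2 in blue (points: edgeR estimate from 3 against 3 libraries; bars: standard error; open points: adjusted p of 0.05 or above). The genes of the H3K4 methyltransferase class all lie to the right of 0, while the class IIa deacetylases span from Hdac7 at -1.49 and -1.33 to Hdac9 at 1.01 and 1.09.

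The most abundant members per length in shlucif cells were Ehmt2 (56.8 FPKM), the H3K9 methyltransferase known as G9a, and Kdm1a (46.1 FPKM), the flavin-dependent H3K4 demethylase LSD1. Neither passed the threshold, and both kept the first ranks in Arf1-deficient cells at 54.3 and 50.9 FPKM. Ehmt2 missed it narrowly (-0.13, edgeR adjusted p = 0.053) and passed in 10 of the 23 alternatives, and Kdm1a (0.08) passed in 5. Hdac5, a class IIa deacetylase, moved from rank 5 of 59 (27.9 FPKM) to rank 18 (14.7 FPKM). Ezh2 moved from rank 21 (12.6 FPKM) to rank 8 (19.0 FPKM), and Ezh1 from rank 24 (10.7 FPKM) to rank 40 (4.51 FPKM).

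The H3K27 methyltransferases changed in opposite directions. Ezh1 and Ezh2 are alternative catalytic subunits of Polycomb repressive complex 2, with Ezh2 known from dividing cells and Ezh1 from cells that have stopped dividing. Ezh1 (ENSMUSG00000006920) lies on chromosome 11 of GRCm38 from 101191115 to 101226463 and Ezh2 (ENSMUSG00000029687) on chromosome 6 from 47530139 to 47595341. Ezh1 was at 9.72, 11.1 and 11.3 FPKM with shlucif, at 4.68, 4.33 and 4.14 FPKM with shArf1-1 and at 4.47, 5.05 and 4.38 FPKM with shArf1-2. The groups did not overlap, and in Arf1-deficient cells Ezh1 fell by 1.31 on the log2 scale (SE 0.07, edgeR adjusted p = 1.18e-11). Ezh2 was at 12.4, 12.6 and 12.9 FPKM with shlucif, at 19.3, 18.6 and 21.1 FPKM with shArf1-1 and at 18.5, 18.2 and 18.6 FPKM with shArf1-2. Every Arf1-deficient library was above every shlucif library, with a log2 fold change of 0.53 (SE 0.06, edgeR adjusted p = 3.35e-07). Of the summed FPKM of the pair, Ezh1 held 45.8% ± 1.57 (SD, n = 3) with shlucif, 18.3% ± 1.63 with shArf1-1 and 20.1% ± 1.40 with shArf1-2, while the sum itself stayed between 22.1 and 25.2 FPKM in all 9 libraries.

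Promoter sequences of 4 members are shown, Ezh1 and Ezh2 because the paralogues moved apart, Sirt1 as the member with the largest rise and Hdac5 as the most abundant of the class IIa deacetylases. Each runs from 250 bases before to 50 after the start listed by RefSeq on GRCm38.p6, all on the minus strand, at chr11:101226414-101226713 (Ezh1), chr6:47594981-47595280 (Ezh2), chr10:63338986-63339285 (Sirt1) and chr11:102230123-102230422 (Hdac5). Sequences are written 5′ to 3′ along the gene, and capitals mark matches on either strand, overlapping ones counted separately, to CACGTG (the E-box), GGGCGG (the GC box), CCAAT (the CCAAT box) or TGCGCA (the core of NRF1 sites):
Ezh1: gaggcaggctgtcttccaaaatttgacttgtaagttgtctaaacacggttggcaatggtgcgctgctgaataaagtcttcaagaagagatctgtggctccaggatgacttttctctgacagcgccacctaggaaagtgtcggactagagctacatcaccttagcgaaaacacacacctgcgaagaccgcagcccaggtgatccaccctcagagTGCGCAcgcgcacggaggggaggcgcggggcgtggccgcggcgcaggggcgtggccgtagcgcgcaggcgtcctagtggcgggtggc
Ezh2: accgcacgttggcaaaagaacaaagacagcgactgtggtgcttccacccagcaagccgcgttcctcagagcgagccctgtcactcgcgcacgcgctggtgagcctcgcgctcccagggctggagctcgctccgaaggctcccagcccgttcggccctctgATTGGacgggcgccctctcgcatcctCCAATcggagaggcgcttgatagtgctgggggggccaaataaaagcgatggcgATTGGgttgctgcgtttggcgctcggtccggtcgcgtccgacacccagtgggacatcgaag
Sirt1: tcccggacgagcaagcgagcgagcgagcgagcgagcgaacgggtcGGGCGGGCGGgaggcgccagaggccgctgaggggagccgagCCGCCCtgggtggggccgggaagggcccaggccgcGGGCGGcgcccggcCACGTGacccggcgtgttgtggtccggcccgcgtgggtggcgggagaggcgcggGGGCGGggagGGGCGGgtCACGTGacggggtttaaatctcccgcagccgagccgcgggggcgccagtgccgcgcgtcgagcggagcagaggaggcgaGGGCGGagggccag
Hdac5: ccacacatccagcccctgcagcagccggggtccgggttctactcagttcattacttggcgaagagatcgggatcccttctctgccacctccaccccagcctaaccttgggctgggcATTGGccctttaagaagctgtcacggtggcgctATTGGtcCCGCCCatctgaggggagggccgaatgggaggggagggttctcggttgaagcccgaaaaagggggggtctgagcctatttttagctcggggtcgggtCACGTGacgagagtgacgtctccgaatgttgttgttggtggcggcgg
The Sirt1 window, at 63338986 to 63339285, lies inside the gene as GENCODE gives it (63319005 to 63381704, minus strand), away from its 5′ end. The windows differ in the marked letters. Ezh1 held 1 match to TGCGCA and no other, Ezh2 held 3 to CCAAT, Sirt1 held 7 to GGGCGG and 2 to CACGTG, and Hdac5 held 1 to CACGTG, 1 to GGGCGG and 2 to CCAAT. The Sirt1 window had 79.0% G and C and 47 CpG pairs, against 59.3% and 23 in Ezh1, 64.3% and 31 in Ezh2 and 60.7% and 18 in Hdac5. RefSeq start windows matched 45 of the 59 members by symbol, with 62 windows. Of these, 9.68% held CACGTG, 62.9% GGGCGG, 38.7% CCAAT and 21.0% TGCGCA, against 7.15%, 35.7%, 37.4% and 7.76% of all 32851 windows. The median window of a member had 62.0% G and C and 23 CpG pairs, and the median of all windows 52.7% and 7. Members that rose had a median of 62.7% and 27 CpG pairs (17 windows) and members that fell 60.0% and 22 (17 windows). A match is a description of the letters and shows no binding.

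Of the 4 class IIa deacetylases, 3 fell (75%, against 32.9% of all genes) and 1 rose (25%, against 31.6%). These proteins shuttle between nucleus and cytoplasm and repress MEF2 target genes. Hdac5 (ENSMUSG00000008855), on chromosome 11 from 102194432 to 102230166, was at 27.5, 27.5 and 28.7 FPKM with shlucif, at 13.8, 14.6 and 12.0 FPKM with shArf1-1 and at 16.0, 16.1 and 15.5 FPKM with shArf1-2. No library of 1 group reached another group, and Hdac5 fell by 0.99 on the log2 scale (SE 0.07, edgeR adjusted p = 1.04e-09). Hdac7 was at 10.5, 10.5 and 10.9 FPKM with shlucif, at 3.81, 4.10 and 3.93 FPKM with shArf1-1 and at 4.53, 4.61 and 4.23 FPKM with shArf1-2. It had the largest fall of the members tested, by 1.41 on the log2 scale (SE 0.07, edgeR adjusted p = 3.48e-12). Hdac4 fell by 0.46 (SE 0.11, edgeR adjusted p = 0.00247), from 4.55 to 5.20 FPKM with shlucif to 2.78 to 4.18 FPKM in Arf1-deficient cells. Hdac9, the least abundant of the class, was at 0.841, 0.841 and 0.831 FPKM with shlucif, at 1.69, 1.82 and 1.77 FPKM with shArf1-1 and at 1.72, 1.95 and 1.94 FPKM with shArf1-2. Its libraries did not overlap either, with a log2 fold change of 1.05 (SE 0.09, edgeR adjusted p = 8.83e-09), which was 0.61 on the log2(FPKM + 1) scale, where the added 1 shrinks changes of low genes. The class summed to 44.2 FPKM ± 0.92 (SD, n = 3) with shlucif, 22.5 ± 2.00 with shArf1-1 and 26.2 ± 0.34 with shArf1-2, and the share of Hdac9 in it was 1.90% ± 0.05, 7.86% ± 0.60 and 7.15% ± 0.53.

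Of the 4 class I deacetylases, 3 were higher (75.0%, against 31.6% of all genes) and none lower (against 32.9%). Hdac1 and Hdac2 are nuclear catalytic subunits of the Sin3, NuRD and CoREST complexes. Hdac1 was at 19.3 to 23.2 FPKM with shlucif and 33.1 to 38.3 FPKM in Arf1-deficient cells, and rose by 0.69 on the log2 scale (SE 0.07, edgeR adjusted p = 4.27e-08). Hdac2 went from 30.3 to 32.1 FPKM to 46.0 to 52.3 FPKM, with a log2 fold change of 0.59 (SE 0.05, edgeR adjusted p = 1.33e-08). Hdac3, the subunit of the NCoR complex, had a log2 fold change of 0.36 (edgeR adjusted p = 3.50e-05). Hdac8, a class I enzyme outside these complexes, at 0.63 to 1.00 FPKM in all 9 libraries, did not pass (0.13, edgeR adjusted p = 0.566). Of the class IIb and IV genes, Hdac10, a polyamine deacetylase, rose by 0.67 and Hdac6, the tubulin deacetylase, by 0.19, while Hdac11 did not pass. Hdac6 lost its call without shlucif replicate 2 (0.16, edgeR adjusted p = 0.0679).

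**Figure D2:**
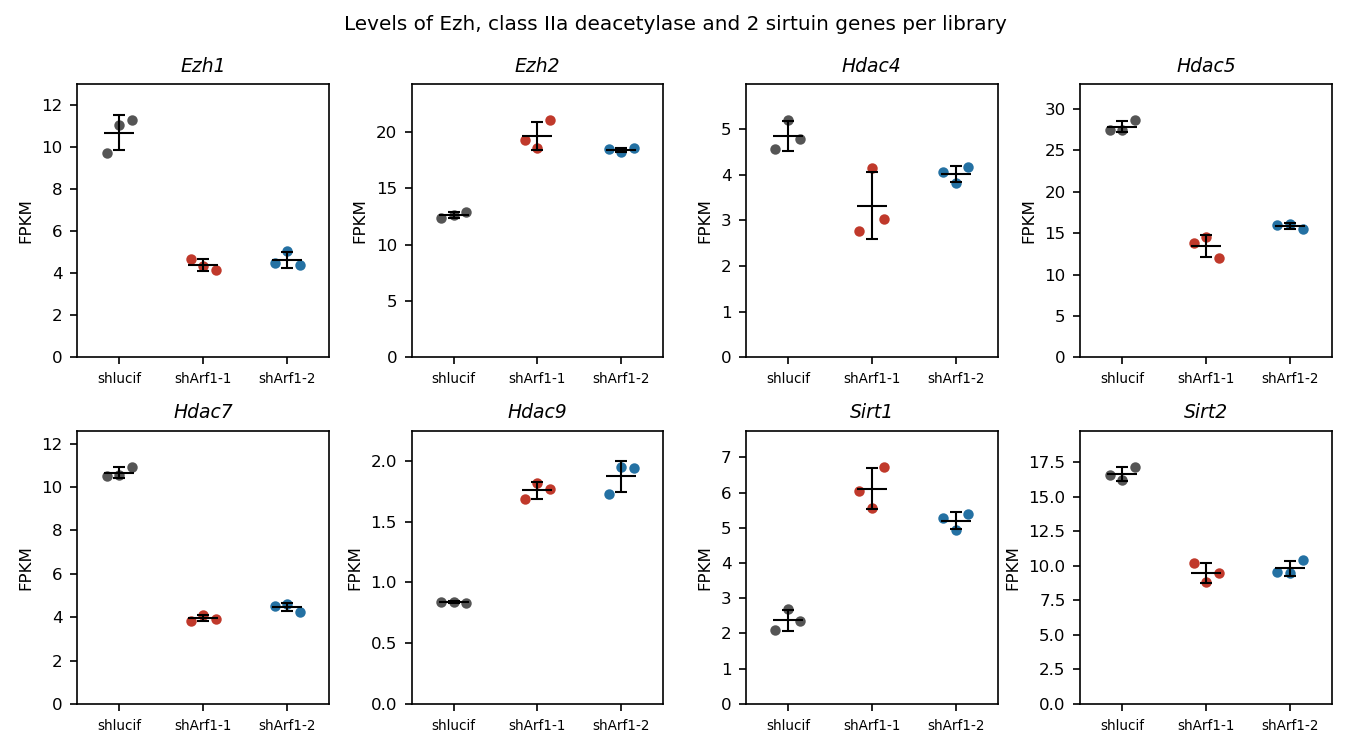
FPKM in each of the 9 libraries for Ezh1, Ezh2, the class IIa deacetylase genes, Sirt1 and Sirt2, in shlucif, shArf1-1 and shArf1-2 cells (points: libraries; bars: mean and SD of 3 libraries; each axis starts at 0). The shlucif libraries are above all others for Ezh1, Hdac4, Hdac5, Hdac7 and Sirt2 and below all others for Ezh2, Hdac9 and Sirt1.

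Among the sirtuins, Sirt1 rose and Sirt2 and Sirt4 fell. Sirt1 is a nuclear deacetylase of histones and transcription factors. It (ENSMUSG00000020063) lies on chromosome 10 from 63319005 to 63381704 and was at 2.10, 2.69 and 2.35 FPKM with shlucif, at 6.05, 5.55 and 6.74 FPKM with shArf1-1 and at 5.28, 4.93 and 5.39 FPKM with shArf1-2. The groups did not overlap, and the log2 fold change of 1.19 was the highest of the members tested (SE 0.12, edgeR adjusted p = 3.53e-08). Sirt2 acts mainly on tubulin in the cytosol. Its levels were 16.6, 16.2 and 17.2 FPKM with shlucif, 10.2, 8.79 and 9.46 FPKM with shArf1-1 and 9.54, 9.50 and 10.5 FPKM with shArf1-2, a fall by 0.85 on the log2 scale (SE 0.07, edgeR adjusted p = 1.73e-09). Every shlucif library was above every Arf1-deficient one. Of the summed FPKM of Sirt1, Sirt2, Sirt6 and Sirt7, Sirt1 took 6.54% ± 0.66 (SD, n = 3) with shlucif, 17.5% ± 2.15 with shArf1-1 and 15.1% ± 0.32 with shArf1-2. Sirt2 took 45.8% ± 2.24, 27.1% ± 2.29 and 28.5% ± 0.81 of it. Sirt4, a mitochondrial sirtuin, was at 5.14, 5.42 and 5.02 FPKM with shlucif, at 3.00, 3.13 and 3.77 FPKM with shArf1-1 and at 3.13, 4.24 and 3.03 FPKM with shArf1-2. It fell by 0.68 (SE 0.13, edgeR adjusted p = 0.000150) with no overlap. Sirt6, a chromatin-bound deacetylase of H3K9, passed narrowly (0.20, SE 0.09, edgeR adjusted p = 0.0476) and not in 12 of the 23 alternatives run, among them DESeq2 at an adjusted p of 0.0647. Its libraries overlapped. The nucleolar Sirt7 and the mitochondrial Sirt3 and Sirt5 did not pass, although Sirt3 passed with shArf1-1 alone (-0.35, edgeR adjusted p = 0.0128).

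All 8 genes grouped here with the H3K4 methyltransferases by family were higher in Arf1-deficient cells (against 31.6% of all genes), with a median log2 fold change of 0.41. Kmt2a to Kmt2d, Setd1a and Setd1b are the catalytic subunits of the MLL and COMPASS complexes, Kmt2e carries a SET domain without known activity on histones, and Setd7 adds single methyl groups to H3K4 and to other proteins. The 7 genes other than Kmt2e had a median of 0.42. Setd1b had the largest change of the class. It was at 1.80, 1.96 and 1.60 FPKM with shlucif, at 3.56, 4.11 and 3.86 FPKM with shArf1-1 and at 2.78, 3.59 and 2.86 FPKM with shArf1-2, a log2 fold change of 0.89 (SE 0.12, edgeR adjusted p = 6.12e-06) with no overlap. Setd7 went from 10.9 to 11.4 FPKM with shlucif to 17.9 to 20.2 FPKM (0.70, SE 0.05, edgeR adjusted p = 1.59e-09). Kmt2b (0.42), Kmt2e (0.40) and Setd1a (0.35) also rose with no overlap, with edgeR adjusted p-values from 4.42e-06 to 0.00100.

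The 3 others of the class were less steady. Kmt2d was at 6.43, 8.55 and 7.11 FPKM with shlucif, at 8.94, 13.4 and 10.6 FPKM with shArf1-1 and at 10.04, 14.3 and 10.7 FPKM with shArf1-2. The library numbered 2 was the highest in each group for Kmt2a, Kmt2c and Kmt2d, and also for Kmt2b, Kmt2e and Setd1b of the steadier genes. Kmt2d had a log2 fold change of 0.56 (SE 0.16, edgeR adjusted p = 0.0115), which missed the threshold without shlucif replicate 1 (0.47, edgeR adjusted p = 0.0541). Kmt2a (0.25, SE 0.10, edgeR adjusted p = 0.0440) passed with neither hairpin alone and not in 13 of the 23 alternatives, with 0.16 and an edgeR adjusted p of 0.211 without shlucif replicate 1. Kmt2c (0.18, SE 0.07, edgeR adjusted p = 0.0222) had a log2 fold change of 0.04 after a correction for gene length (edgeR adjusted p = 0.522) and of 0.10 without shlucif replicate 1 (edgeR adjusted p = 0.210). None of the H3K4 demethylases tested passed as higher. Kdm5c fell by 0.19 (edgeR adjusted p = 0.00201), Kdm5b by 0.32, and Kdm5a, Kdm1a and Kdm1b did not pass.

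**Figure D3:**
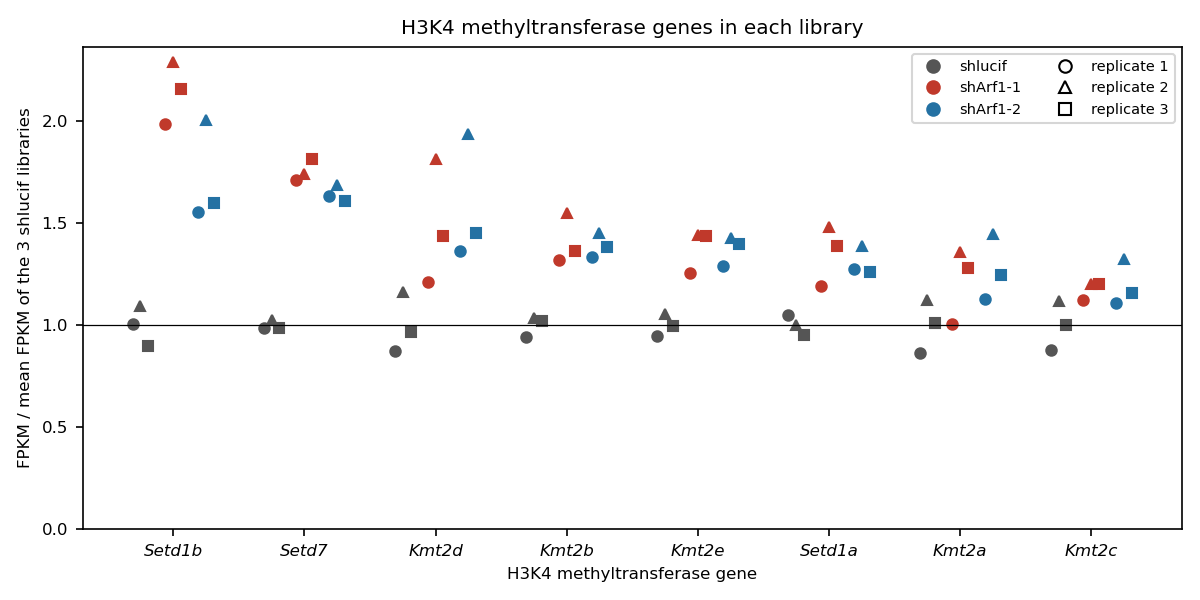
FPKM of the 8 genes of the H3K4 methyltransferase class in each of the 9 libraries, divided by the mean of the 3 shlucif libraries (colours: hairpins; marker shapes: replicate numbers; the line marks 1). Setd1b reaches 1.55 to 2.29 and Setd7 1.61 to 1.82 in Arf1-deficient cells, while Kmt2c, at 1.11 to 1.32, overlaps shlucif replicate 2 at 1.12.

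Methyltransferases of H3K36 and H4K20 moved in both directions within each class. Nsd1, which adds up to a pair of methyl groups to H3K36, was at 0.324, 0.402 and 0.290 FPKM with shlucif, at 0.791, 0.696 and 0.778 FPKM with shArf1-1 and at 0.897, 0.786 and 0.796 FPKM with shArf1-2. It was low in every library but did not overlap between groups, with a log2 fold change of 1.16 (SE 0.13, edgeR adjusted p = 3.35e-07) that was 0.42 on the log2(FPKM + 1) scale. Setd2, the enzyme of H3K36 trimethylation, rose by 0.32 (edgeR adjusted p = 0.000254) and Nsd3 fell by 0.40 (edgeR adjusted p = 3.42e-06), from 14.7 to 16.9 FPKM to 11.8 to 13.7 FPKM. Kmt5b and Kmt5c add further methyl groups to singly methylated H4K20. Kmt5b was at 0.698, 0.887 and 1.06 FPKM with shlucif, at 1.99, 2.07 and 2.47 FPKM with shArf1-1 and at 1.80, 1.83 and 1.94 FPKM with shArf1-2. All 6 Arf1-deficient libraries were above the control libraries, with a log2 fold change of 1.13 (SE 0.13, edgeR adjusted p = 3.97e-07) that was 0.68 on the log2(FPKM + 1) scale. Kmt5c was the more abundant of the pair and fell by 0.35 (SE 0.08, edgeR adjusted p = 0.000916). Kmt5a, the enzyme of the first H4K20 methyl group, did not pass (-0.01), and neither did the H3K9 enzymes Ehmt1 and Ehmt2. Of the other SET domain genes, Setd6, known to methylate the NF-kB subunit RelA, fell by 0.60 (edgeR adjusted p = 1.47e-06), Setd3, the actin histidine methyltransferase, by 0.26 (edgeR adjusted p = 0.000488) and Setd5 by 0.20 (edgeR adjusted p = 0.00313), while Setd4 did not pass. Setd5 missed the threshold when FPKM values were tested with limma (-0.13 on the log2(FPKM + 1) scale, adjusted p = 0.0857).

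Demethylases of H3K36 and H3K9 were mostly not past the threshold. Kdm2a, an H3K36 demethylase that binds unmethylated CpG, was the only 1 of 7 tested to pass (0.45, SE 0.07, edgeR adjusted p = 1.06e-05). The class thus had 14.3% higher (against 31.6% of all genes) and 0 lower (against 32.9%). Its log2 fold changes ran from -0.15 to 0.45. Kdm2b, Kdm3a, Kdm3b, Kdm4a, Kdm4b and Kdm4c did not pass. Of these, Kdm3a passed in 5, Kdm4a in 8 and Kdm4b in 6 of the 23 alternatives. Kdm7a, a demethylase of H3K9 and H3K27, was at 6.81, 8.40 and 8.02 FPKM with shlucif, at 3.38, 3.18 and 4.31 FPKM with shArf1-1 and at 4.64, 5.42 and 4.63 FPKM with shArf1-2. It was lower in all 6 Arf1-deficient libraries and fell by 0.92 (SE 0.13, edgeR adjusted p = 4.81e-05). Kdm8, a JmjC protein also known as Jmjd5, was at 0.789, 1.00 and 1.11 FPKM with shlucif, at 2.74, 2.62 and 1.99 FPKM with shArf1-1 and at 2.08, 1.62 and 1.80 FPKM with shArf1-2. It rose without overlap, with a log2 fold change of 1.08 (SE 0.23, edgeR adjusted p = 0.000383) that was 0.67 on the log2(FPKM + 1) scale. The H3K27 demethylases Kdm6a and Kdm6b did not pass in Arf1-deficient cells. Kdm6a passed with shArf1-2 alone (-0.24, edgeR adjusted p = 0.0272) and Kdm6b with shArf1-1 alone (-0.21, edgeR adjusted p = 0.00347).

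The 7 members that differed between the hairpins were Hdac5, Kdm5b, Kdm6b, Kdm7a, Kmt5c, Nsd2 and Setd1b. The difference given is the change with shArf1-2 minus the change with shArf1-1. Kdm7a had the largest, 0.40 (SE 0.10, edgeR adjusted p = 0.00721), since it fell by 1.14 with shArf1-1 and by 0.73 with shArf1-2. Setd1b differed by -0.34 (SE 0.09, edgeR adjusted p = 0.0102), with a rise of 1.05 and of 0.71. Hdac5 differed by 0.23 (SE 0.06, edgeR adjusted p = 0.0106), with falls by 1.11 and by 0.88. For these 3 genes the mean of the shArf1-1 libraries was farther from shlucif.

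Kdm5b, an H3K4 demethylase, was at 4.08, 4.34 and 4.61 FPKM with shlucif, at 3.06, 3.30 and 3.46 FPKM with shArf1-1 and at 3.79, 3.94 and 4.27 FPKM with shArf1-2. It fell by 0.32 over both hairpins (SE 0.09, edgeR adjusted p = 0.00295) and differed between them by 0.27 (SE 0.07, edgeR adjusted p = 0.00983), and its shArf1-2 libraries overlapped shlucif. Kmt5c was at 21.5, 19.5 and 19.8 FPKM with shlucif, at 16.2, 15.8 and 13.7 FPKM with shArf1-1 and at 18.3, 18.0 and 17.8 FPKM with shArf1-2. The groups were apart, and the difference between the hairpins was 0.23 (SE 0.07, edgeR adjusted p = 0.0262). Kdm6b was at 17.1, 17.6 and 18.9 FPKM with shlucif, at 14.8, 17.0 and 16.3 FPKM with shArf1-1 and at 17.4, 19.5 and 18.2 FPKM with shArf1-2. The shArf1-2 libraries overlapped shlucif and the shArf1-1 libraries were below it. The difference between the hairpins of 0.18 passed narrowly (SE 0.06, edgeR adjusted p = 0.0497), and after a correction for GC content it was 0.11 (edgeR adjusted p = 0.174). Nsd2, at 16.9, 18.5 and 17.5 FPKM with shlucif, 18.8, 18.7 and 20.2 FPKM with shArf1-1 and 17.0, 18.6 and 16.4 FPKM with shArf1-2, passed against shlucif with neither hairpin but differed between them by -0.17 (SE 0.05, edgeR adjusted p = 0.0267). With shArf1-2, Nsd2 was at -0.09 and passed at -0.23 after the gene length correction (edgeR adjusted p = 7.1e-05), at -0.21 after the GC content correction (edgeR adjusted p = 4.76e-05) and at -0.14 without shArf1-2 replicate 2 (edgeR adjusted p = 0.0372). With shArf1-1 it was at 0.07 and passed at 0.13 with library size scaling (edgeR adjusted p = 0.0351). Each of the 7 differences missed the threshold when at least 1 of the 6 Arf1-deficient libraries was left out, and 2 to 11 members then passed between the hairpins. Kdm7a missed it without shArf1-1 replicate 1 (0.36, edgeR adjusted p = 0.0510).

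**Figure D4:**
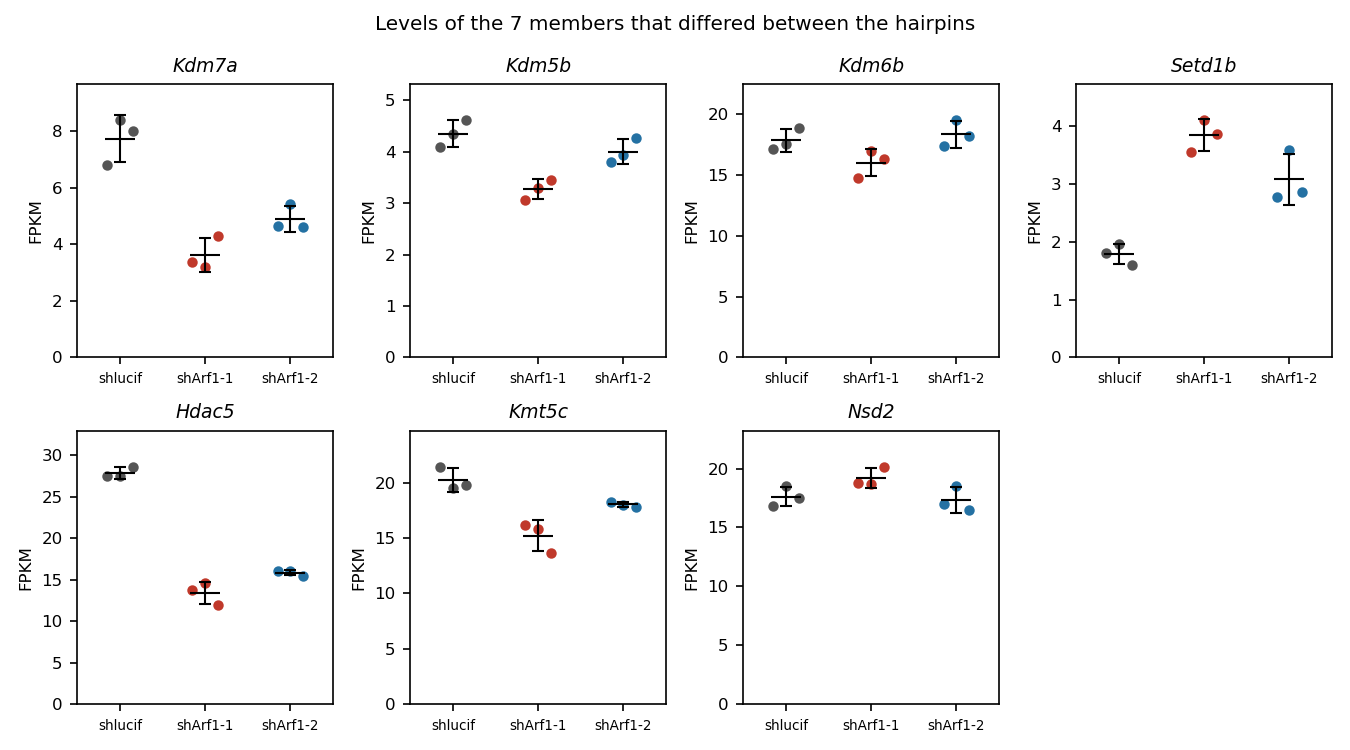
FPKM in each library for the 7 members that differed between shArf1-1 and shArf1-2 (points: libraries; bars: mean and SD of 3 libraries; axes start at 0). The mean of the shArf1-1 libraries lies farther from shlucif for Kdm7a, Setd1b, Hdac5, Kdm5b and Kmt5c, whereas for Nsd2 the shlucif and shArf1-2 libraries overlap between 16.4 and 18.6 FPKM with the shArf1-1 libraries above them at 18.7 to 20.2 FPKM.

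The partners and relatives of these enzymes were counted on lists of their own, on which 90 genes were tested. Of these, 32 were higher with Arf1 deficiency (35.6%, against 31.6% of all genes) and 19 lower (21.1%, against 32.9%). Of 10 partners of the H3K4 methyltransferases tested, 3 were higher and 1 lower, close to the share of all genes for the higher ones. Psip1, which tethers MLL complexes to chromatin, had a log2 fold change of 0.41 and Cxxc1, the CpG-binding subunit of the Setd1 complexes, of -0.18. Of 9 Polycomb repressive complex 2 partners, 2 were higher (22.2%) and 1 lower (11.1%), with Jarid2, a cofactor that recruits the complex, at 0.69 and Phf1 at -0.66. Deacetylase complex partners had 11 of 24 higher (45.8%, against 31.6% of all genes) and 3 lower (12.5%, against 32.9%), with the CoREST subunit Rcor2 at 1.39 and the scaffold Sin3b at -0.59. Rcor2, which binds Kdm1a and class I deacetylases, rose from 19.6 FPKM ± 0.86 (SD, n = 3) with shlucif to 53.4 ± 2.51 with shArf1-1 and 54.2 ± 3.17 with shArf1-2 (SE 0.06, edgeR adjusted p = 6.60e-13).

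Histone lysine methyltransferases with other names had 6 of 13 higher (46.2%, against 31.6% of all genes) and 2 lower (15.4%, against 32.9%), with the H3K9 enzyme Suv39h2 at 0.47 and Smyd3 at -0.97. JmjC genes with other names had 3 of 8 higher (37.5%) and 2 lower, with Jmjd4 at 0.47 and Phf8, a demethylase of H3K9 and H4K20, at -0.29. Histone acetyltransferases, which set the marks that deacetylases remove, had 4 of 11 higher (36.4%) and 2 lower (18.2%), with Kat2b at 0.77 and Hat1 at -0.38. Genes of DNA methylation and hydroxymethylation had 3 of 8 higher and 2 lower, the same counts, with the methyltransferase Dnmt3b at 0.50 and the dioxygenase Tet2 at -1.39 (edgeR adjusted p = 1.39e-09). The shares higher on the JmjC, acetyltransferase and DNA methylation lists lay close to the 31.6% of all genes. The list around NAD, the cosubstrate of the sirtuins, had 0 of 7 genes higher (against 31.6% of all genes). It had 6 lower (85.7%, against 32.9%), with a median log2 fold change of -0.27 against 0.00 over all genes. Not all of these make NAD, since Nadk (-0.23) and Nadk2 (-0.54) turn it into NADP, and Nnmt is given below. Of the synthesis genes tested, Nampt (-0.27), Nmnat2 (-0.15) and Nadsyn1 were lower and Nmnat1 did not pass. The list summed to 140 to 142 FPKM with shlucif, 115 to 117 with shArf1-1 and 128 to 130 with shArf1-2. Nadk alone had means of 69.8, 57.5 and 66.6 FPKM in these groups. Among the list's genes at 5 CPM or more, the largest fall was that of Nadsyn1, the last enzyme of the route from nicotinic acid, by 0.76 (SE 0.15, edgeR adjusted p = 0.000223). Nnmt, which methylates nicotinamide, was below that level, with 27 to 47 counts per shlucif library and 9 to 26 per Arf1-deficient one, and fell by 1.23 (SE 0.33, edgeR adjusted p = 0.00304).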

How the data were processed

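RNA-seq libraries of N2a cells (9, with 3 per hairpin) were analysed from the table that the authors deposited, which holds a whole-number read count and an FPKM value per gene and library. According to the labels, poly(A) RNA was selected on oligo(dT), fragmented and primed with random primers. The submitters' processing notes name the genome build mm10. The aligner, the counting tool and the use of strand are not given in the sources used here, so reads of a gene and of an antisense or near-identical gene may be shared. The deposited counts are raw. The deposited FPKM values were recomputed as count over gene length over total (largest relative difference 1.9e-07), so a few abundant genes can shift them. Columns named shArf2 were read as shArf1-2. Lines without a gene identifier (8) were left out. Of 21846 genes matched to GENCODE vM21 on GRCm38, 562 had the table's start and end, so coordinates were taken from GENCODE by identifier.

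Counts were tested with edgeR 4.0.16 (filterByExpr on the 3 hairpin groups, TMM scaling, robust glmQLFit, glmQLFTest) in R 4.3.3, in a fit of 6 Arf1-deficient against 3 shlucif libraries and a fit of 3 groups for each hairpin and their difference, with Benjamini-Hochberg adjustment over all genes tested. Standard errors were derived from the F statistic. The test was checked on simulated data. Totals of 11182479 to 15594615 counts per library set the precision. TMM factors were 0.962 to 0.983 with shlucif and 1.005 to 1.03 in Arf1-deficient libraries. FPKM values carry no TMM scaling. With library size scaling, the median log2 fold change of all genes in Arf1-deficient cells was 0.07, in place of 0.00 with TMM. FPKM levels of Arf1-deficient cells are thus shifted upward against the tested changes. Replicate libraries differed by more than sampling noise. Full values are given for members past the threshold that changed by 1 or more on the log2 scale, for the 6 largest rises and 6 largest falls among members past it whose groups did not overlap and whose higher group reached 5 CPM, and for members that differed between the hairpins. Of each related list the largest change past the threshold in each direction is named, leaving out genes whose mean stayed under 5 CPM on both sides, and Nnmt was added after its values were seen. Ezh2, Hdac1, Hdac2, Hdac4, Setd7 and Kmt2d are given at more length than this rule asks. The members and lists were chosen with earlier results of these data known. Alternatives were DESeq2 1.42.0, library size, upper quartile or DESeq2 scaling, no filter, at least 10 counts in every library, limma 3.58.1 on log2(FPKM + 1) or on log2(FPKM + 0.1), the replicate number as a block, gene length and GC content corrections alone or with the block, fits of only the 6 libraries compared, the average of the hairpin contrasts, and leaving out each library. Combining the block with the GC correction was chosen after seeing the data.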

Additional observations from a re-analysis of the deposited data

Results flagged for a closer look

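The change against shlucif differed between the 2 hairpins, by edgeR's test of the difference itself, for 7 members. The change with shArf1-2 minus the change with shArf1-1 was 0.40 on the log2 scale for Kdm7a, 0.27 for Kdm5b, 0.23 for Hdac5, 0.23 for Kmt5c, 0.18 for Kdm6b, -0.17 for Nsd2 and -0.34 for Setd1b. This is 12.3% of the 57 members tested, against 14.4% of all 12448 genes. Arf1 itself differed between the hairpins by 0.34 (standard error 0.05, edgeR adjusted p = 1.16e-05), with 128 FPKM ± 1.73 (SD, n = 3) left with shArf1-1 and 165 ± 6.92 with shArf1-2. The part of this in the 7 differences was not tested.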

How the results depend on the processing

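Of the 36 members past the threshold in Arf1-deficient cells, 30 kept their direction and stayed past it in all 14 alternative settings and without each of the 9 libraries in turn. The other 6 (Hdac6, Kmt2a, Kmt2c, Kmt2d, Setd5 and Sirt6) missed it in at least 1 of these, and none of the 36 changed sign. Of the 21 members not past it, 9 passed in some setting. Counts of higher members ranged from 20 to 25 over the settings and from 18 to 22 without 1 library, and counts of lower members from 13 to 19 and from 14 to 16. With limma on log2(FPKM + 1) and on log2(FPKM + 0.1), 9 members were lower with shArf1-2 in place of 15, and 3 differed between the hairpins in place of 7. Without 1 library, 2 to 11 members differed between the hairpins, with 2 without shArf1-2 replicate 1 or 3, 3 and 4 without shArf1-1 replicate 1 and 3, and 11 without shArf1-1 replicate 2. The causes were not tested. Nsd2 in Arf1-deficient cells passed at -0.14 with the gene length correction and -0.13 with the GC content correction alone or with the block, and Kdm6b at -0.12 with the average of the hairpin contrasts and -0.15 without shArf1-2 replicate 2. On the related lists, 29 genes were higher by either upper quartile scaling or DESeq2 in place of 32. Values that changed sign were those of members not past the threshold in that comparison. Nsd2 in Arf1-deficient cells was at 0.05 with library size scaling and both FPKM settings and at -0.04 to 0.02 without 1 library, with shArf1-1 at -0.06 with the gene length or GC content correction. Kdm6b with shArf1-2 was at 0.04 with library size scaling and both FPKM settings, 0.02 with the GC content correction and -0.07 to 0.01 without 1 library.

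Across all genes tested, replicate numbers did not pair the libraries. Deviations of libraries with the same number correlated at a mean r of 0.007 over 9 pairs (-0.082 to 0.094), and 4 of 9 libraries correlated best with their own number. This does not cover single classes. The H3K4 methyltransferase class summed to 59.3, 68.1 and 63.0 FPKM in libraries 1, 2 and 3 of shlucif. It summed to 82.9, 98.2 and 92.4 with shArf1-1 and to 84.4, 97.9 and 87.9 with shArf1-2, the same order in each group. With the replicate block, the Arf1-deficient cells had 21 members higher and 14 lower, and 7 differed between the hairpins. Sirt6 was the member that missed the threshold under it (0.20, edgeR adjusted p = 0.0603). With the block and the gene length correction, Nsd2 with shArf1-1 was at -0.06, as with the block and the GC content correction, under which Kdm6b with shArf1-2 was at 0.02. Kdm8, Sirt5 and Hdac8 had standard errors of 0.23, 0.22 and 0.19, the largest of the members, so changes of that size in them were not detectable at this depth.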
